A study of Mus musculus with 6 samples.

Results

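The 10 genes described here encode CC chemokines, small secreted proteins named for a pair of adjacent cysteines, measured by RNA sequencing in mouse bone marrow-derived macrophages. They were chosen by name from the genes listed in the deposited count table, which holds 12 genes of the Ccl series and 10551 genes in all, and they were chosen with earlier results of the comparison of control with knockout libraries known. The 10 are the monocyte chemoattractant group (Ccl2, Ccl7, Ccl8 and Ccl12), the macrophage inflammatory protein group together with Ccl5 (Ccl3, Ccl4, Ccl5, Ccl6 and Ccl9), and Ccl24, an eotaxin. Their differences between the groups are therefore given as a description, and nothing is supported with them. All 10 had a count in every library and passed the filter on low counts, which removed 0 genes of the table.

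Each of the 6 libraries was made from total RNA of macrophages grown from the marrow of C57BL/6J mice. The 3 control libraries carry only the word control as their genotype, and the 3 knockout libraries are labelled as a macrophage-specific deletion of Dhps (Dhps_delta_Myel). The product of Dhps, deoxyhypusine synthase, carries out the opening step in making hypusine from a lysine of the translation factor Eif5a. No stimulus, growth factor, Cre driver, age or sex is given in the sources used here, and the labels do not tie libraries to animals or cultures. A p-value here measures only the spread between these libraries, which may be technical. Library totals ran from 11648710 to 16224818 counts. Dhps itself, counted over all its exons, was at 24.1, 20.9 and 23.4 counts-per-million (CPM, scaled by library size) in the control libraries and at 13.2, 13.6 and 18.3 in the knockout libraries, with no overlap, and its log2 fold change of -0.59 had an adjusted p of 0.214 in edgeR's quasi-likelihood test with Benjamini-Hochberg adjustment over all genes. The labels do not say which part of the gene was deleted.

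CC chemokines bind G protein-coupled receptors on leukocytes and direct their movement along a gradient of the protein. Macrophages are a main source of several of them. Ccl2, Ccl7 and Ccl12 act on Ccr2, which draws monocytes out of the marrow and into tissue, whereas mouse Ccl8 acts on Ccr8. Ccl3 and Ccl5 act on Ccr1, which is a receptor for Ccl6 and Ccl9 as well. Ccl24 attracts eosinophils through Ccr3.

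In the mm10 assembly, 9 of the 10 genes lie on chromosome 11 in a pair of clusters, and Ccl24 lies apart on chromosome 5 (chr5:135569937-135573043, minus strand). The monocyte chemoattractant genes follow each other on the plus strand as Ccl2 (chr11:82035577-82037452), Ccl7 (chr11:82045712-82047523), Ccl12 (chr11:82101845-82103399) and Ccl8 (chr11:82115185-82116799). Ccl12 and Ccl8 are 11.8 kb apart with no coding gene between them. After a gap of 1409 kb that holds 26 coding genes come Ccl5 (chr11:83525779-83530518), Ccl9 (chr11:83572917-83578636), Ccl6 (chr11:83587886-83593087) and Ccl3 (chr11:83647843-83649378) on the minus strand and Ccl4 (chr11:83662584-83664683) on the plus strand. RefSeq promoter sequences of GRCm38.p6, the same assembly with patches, were matched for 5 of the 10 genes (Ccl8, Ccl12, Ccl3, Ccl6 and Ccl9). The 250 bases before the start of 4 of them are printed here because Ccl8 and Ccl12 are adjacent and only Ccl8 of the pair passed the threshold, and because Ccl9 and Ccl6, also adjacent, had the highest mean levels per length of the 10. Each is written 5′ to 3′ on the strand of the gene, and capitals mark matches to the motifs searched. The windows are chr11:82114935-82115184 on the plus strand for Ccl8, chr11:82101595-82101844 on the plus strand for Ccl12, chr11:83578637-83578886 on the minus strand for Ccl9 and chr11:83593088-83593337 on the minus strand for Ccl6.
Ccl8: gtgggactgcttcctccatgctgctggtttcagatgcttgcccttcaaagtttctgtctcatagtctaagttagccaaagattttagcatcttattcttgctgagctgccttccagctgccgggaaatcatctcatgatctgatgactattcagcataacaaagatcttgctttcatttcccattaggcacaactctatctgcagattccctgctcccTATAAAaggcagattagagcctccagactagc
Ccl12: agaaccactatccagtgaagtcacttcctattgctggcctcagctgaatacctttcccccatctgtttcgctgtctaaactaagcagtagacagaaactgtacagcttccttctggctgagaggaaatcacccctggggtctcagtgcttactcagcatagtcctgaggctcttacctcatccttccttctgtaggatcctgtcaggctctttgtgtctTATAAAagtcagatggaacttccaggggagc
Ccl9: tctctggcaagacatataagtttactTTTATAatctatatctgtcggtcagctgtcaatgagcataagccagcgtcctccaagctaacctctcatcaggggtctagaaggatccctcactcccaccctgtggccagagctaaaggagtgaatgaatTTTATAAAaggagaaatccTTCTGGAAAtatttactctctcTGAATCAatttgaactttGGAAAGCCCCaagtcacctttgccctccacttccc
Ccl6: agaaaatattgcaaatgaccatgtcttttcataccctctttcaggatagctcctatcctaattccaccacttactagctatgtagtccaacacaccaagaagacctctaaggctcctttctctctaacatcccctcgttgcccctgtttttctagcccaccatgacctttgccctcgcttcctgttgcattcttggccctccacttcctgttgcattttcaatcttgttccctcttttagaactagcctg
Both strands were searched for 6 motifs: GGGNN followed directly by TTTCC (the NF-kB site), TTCNNNGAA (the GAS site bound by STAT factors), GAAANN followed directly by GAAA (the core of the interferon-stimulated response element), TGANTCA (AP-1), TTNCNNNAA (C/EBP) and TATAAA (the TATA box). Ccl8 held TATAAA from base -32 to -27 before its start and Ccl12 held it from -31 to -26, and neither window held any of the other motifs. Ccl9 held an NF-kB match from -35 to -26, an AP-1 match from -53 to -47, a C/EBP match from -75 to -67 and 3 matches to TATAAA on either strand. Of those 3, the match from -94 to -89 and that from -92 to -87 overlap each other. The windows of Ccl6 and Ccl3 held none of the 6. Over all 32851 RefSeq promoters, 12.4% of windows of this length held TATAAA, 1.41% the NF-kB motif, 6.75% the AP-1 motif, 32.9% the C/EBP motif, 7.02% the GAS motif and 2.98% the core of the interferon response element. A match is a description of letters and not a bound site, and no match says only that the letters are not in the window.

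At the coding level, the pairs most alike among the 10 genes were Ccl3 and Ccl4, whose coding sequences were identical at 66.7% of aligned positions, Ccl6 and Ccl9 at 64.8%, and Ccl8 and Ccl12 at 64.4%. None of the 50-base stretches of any of the 10 transcripts occurred in another of the 10, and only Ccl9 shared any with other genes, at 59 of 2996 stretches. No exon of the 10 overlapped an exon of another gene. Eif5a with hypusine is known to help ribosomes past runs of prolines. The longest run of proline codons was 1 in 8 of the 10 genes, Ccl8, Ccl7, Ccl2 and Ccl24 included, and 2 in Ccl4 and Ccl6. Of 9950 genes of the table with a coding sequence, 71.7% had a run of 2 or more and 24.2% a run of 3 or more.

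Per length, these chemokine transcripts covered a wide span of levels. On the scale of CPM for each kilobase of the deposited gene length (RPKM), Ccl9 was highest at a mean of 1130 over the 6 libraries (range 1012 to 1304), followed by Ccl6 at 930.0 (869 to 991), Ccl4 at 897 (793 to 1048) and Ccl2 at 673 (493 to 898). Ccl5 followed at 575 (495 to 642), Ccl7 at 426 (273 to 589) and Ccl3 at 330.4 (307 to 365). Ccl12 stood at 269.6 (255 to 297), Ccl8 at 133 (104 to 172) and Ccl24 at 20.9 (12.5 to 30.6). Neighbours in this order whose ranges did not overlap were Ccl9 and Ccl6, Ccl3 and Ccl12, Ccl12 and Ccl8, and Ccl8 and Ccl24. The other neighbours overlapped in range, so that their order was within the spread of the libraries. Ccl9 held rank 29 of all 10551 genes by mean CPM, and the 10 genes together took between 0.645% and 0.787% of the counts of a library.

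**Figure D1:**
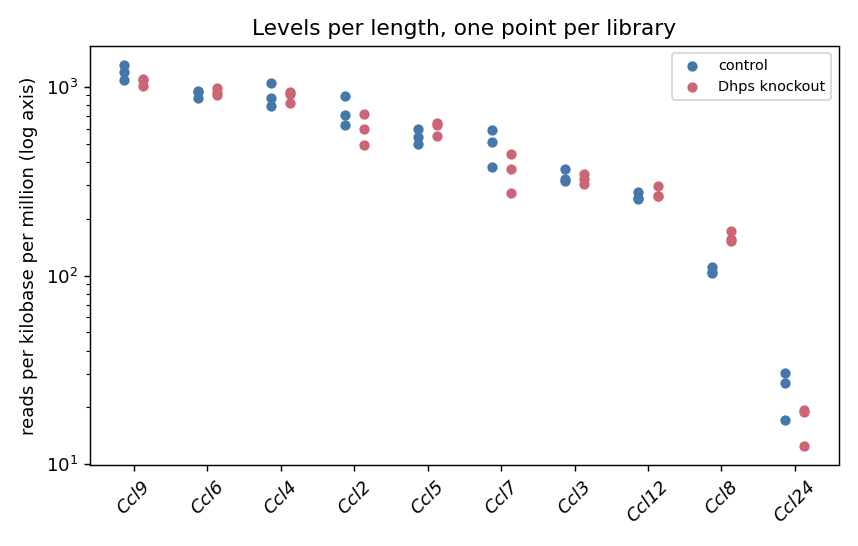
Level of each of the 10 genes in RPKM (log axis), 1 point per library, with control and Dhps knockout libraries side by side and genes ordered by their mean. Ccl9 is highest, with a mean of 1130, and Ccl24 lowest, with a mean of 20.9, and Ccl8 shows a gap between the groups.

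In the comparison of knockout with control macrophages, 1 of the 10 chemokine genes, Ccl8, was higher and passed the threshold (adjusted p under 0.05 in edgeR's quasi-likelihood test, with Benjamini-Hochberg adjustment over all 10551 genes), and 0 were lower past it. DESeq2 and limma-voom also called 1 of the 10 and 0 as lower. A fit with same-numbered libraries as blocks called more of the 10, some as lower, and is given in the closing section. The fold was 1.51. Ccl2, Ccl7 and Ccl24 had lower means in the knockout, with groups that overlapped, and did not pass. The other 6, among them the abundant Ccl9, Ccl6 and Ccl4, had log2 fold changes between -0.17 and 0.15. Over all genes, 0.104% were called, 0.0948% as higher and 0.00948% as lower. In 1 of the 10, Ccl8, the groups did not overlap with the knockout higher, and in 0 with the knockout lower, against 5.73% and 5.45% of all genes. An unadjusted p under 0.05 was reached by Ccl8 among higher genes and by Ccl2, Ccl7 and Ccl24 among lower genes, against 3.84% and 2.64% of all genes. Because the same comparison was known when the 10 were chosen, nothing is read from these counts. The median log2 fold change of the 10 was -0.03, beside -0.0044 over all genes. In bulk RNA, fewer cells that make a chemokine and less of its RNA per cell cannot be told apart.

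**Figure D2:**
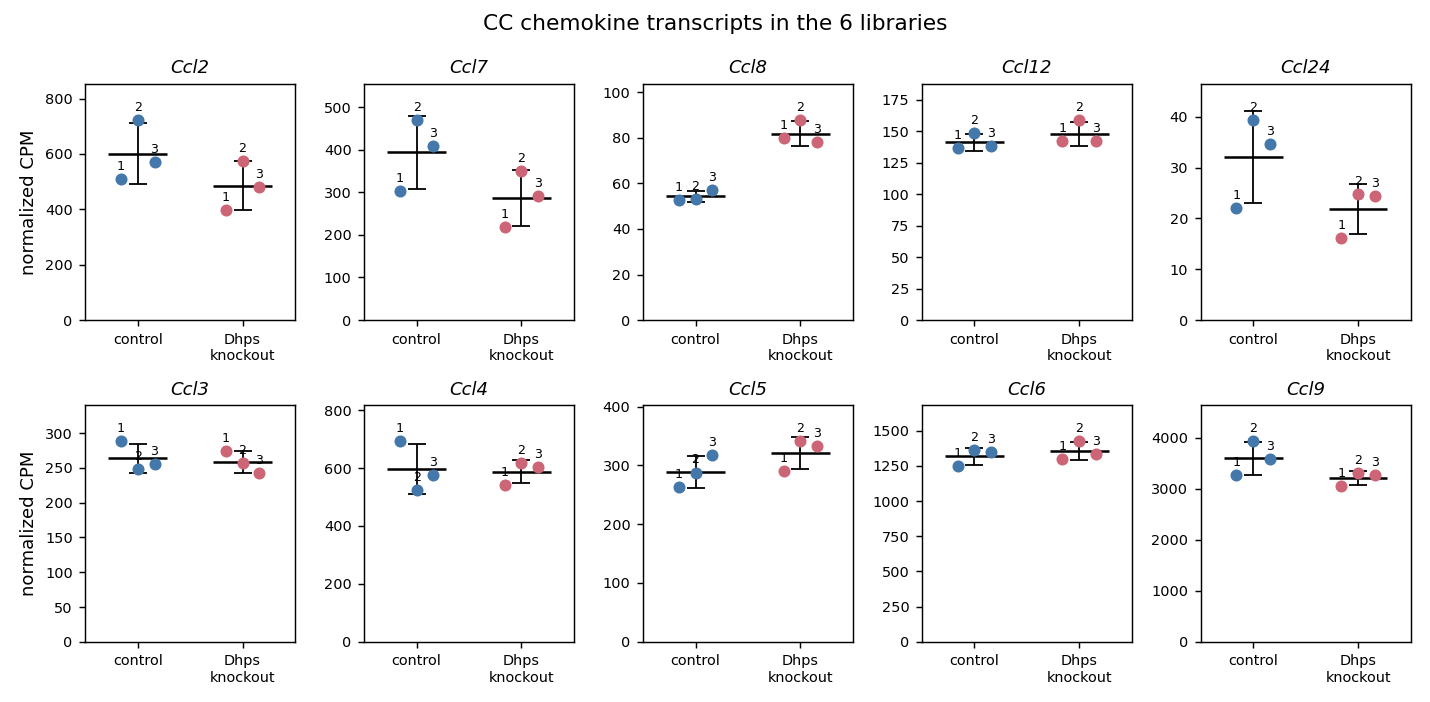
Level of each gene in CPM, 1 panel per gene, with a point for each of the 3 control and 3 Dhps knockout libraries and bars for the mean and SD. The knockout libraries of Ccl8 sit at 78.0 to 88.0, all above the control libraries at 52.9 to 57.0.

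Among the monocyte chemoattractants, Ccl8, a ligand of Ccr8 in the mouse, was at 52.9, 53.2 and 57.0 CPM in the 3 control libraries and at 79.8, 88.0 and 78.0 CPM in the 3 knockout libraries. Every knockout library was above every control library, and the libraries of each group lay close together. The mean rose from 54.4 ± 2.32 CPM (SD, n = 3) to 81.9 ± 5.33 CPM (SD, n = 3), a log2 fold change of 0.59 (95% interval 0.39 to 0.79, SE 0.094) with an adjusted p of 0.0123 in edgeR's quasi-likelihood test. The counts behind these levels ran from 656 to 1273 a library. Leaving out control replicate 2 or knockout replicate 2 ended the call, with adjusted p of 0.133 and 0.137 in edgeR, while the log2 fold change stayed at 0.58 and 0.54.

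Ccl2, the main monocyte chemoattractant and ligand of Ccr2, went the other way in its means. Its levels were 508, 724 and 571 CPM in the control libraries and 398, 576 and 481 CPM in the knockout libraries. The groups overlapped, since knockout replicate 2 lay above control replicates 1 and 3. The mean was 601 ± 111 CPM (SD, n = 3) in the control and 485 ± 89.2 CPM (SD, n = 3) in the knockout, with a log2 fold change of -0.31 (95% interval -0.59 to -0.03) and an adjusted p of 0.723 in edgeR.

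Ccl7, another ligand of Ccr2 encoded next to Ccl2, was at 302, 470.3 and 408 CPM in the control libraries and at 218, 350.1 and 291 CPM in the knockout libraries. Only knockout replicate 2 exceeded a control library, replicate 1. Its mean was 393 ± 85.2 CPM (SD, n = 3) and 286.5 ± 66.2 CPM (SD, n = 3), a log2 fold change of -0.46 (95% interval -0.79 to -0.13) with an adjusted p of 0.553 in edgeR. Ccl12, the neighbour of Ccl8 and a mouse ligand of Ccr2, was at 137, 149 and 138 CPM in the control and at 142, 159 and 142 CPM in the knockout. Its groups overlapped and its log2 fold change was 0.06 (95% interval -0.12 to 0.25), with an adjusted p of 0.961 in edgeR. It was 0.0087 without knockout replicate 2 and 0.11 without control replicate 2.

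Within a library, the balance of these 4 genes differed between the groups. The number of Ccl7 counts for each count of Ccl8 was 5.71, 8.85 and 7.16 in the control libraries and 2.73, 3.98 and 3.73 in the knockout libraries. For Ccl2 the ratio to Ccl8 was 9.60, 13.6 and 10.002 in the control and 4.99, 6.54 and 6.16 in the knockout, and for Ccl12 it was 2.59, 2.80 and 2.42 against 1.78, 1.81 and 1.82. All 3 ratios were lower in every knockout library than in every control library. The ratio of Ccl2 to Ccl7 was 1.68, 1.54 and 1.398 in the control and 1.82, 1.65 and 1.65 in the knockout, so that those groups overlapped. The ratios to Ccl8 share its counts, and all 4 are a description of the same comparison.

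In the macrophage inflammatory protein group, 0 of 5 genes passed the threshold, and the groups overlapped for each of them. None of these 5 had an unadjusted p under 0.05 in edgeR. Ccl9, a ligand of Ccr1 made in quantity by mouse macrophages, was at 3274, 3924 and 3585 CPM in the control and 3043, 3308 and 3259.9 CPM in the knockout libraries. Control replicate 1 was within the range of the knockout and the other control libraries above it. The log2 fold change was -0.17 (95% interval -0.36 to 0.03), with an adjusted p of 0.836 in edgeR. Ccl6, the other abundant ligand of Ccr1, was at 1248, 1360.4 and 1347 CPM against 1299, 1423 and 1335 CPM. Its groups interleaved, and its log2 fold change was 0.04 (95% interval -0.14 to 0.21), which was -0.0015 without control replicate 1 and -0.0018 without knockout replicate 2.

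Ccl3, an attractant of macrophages and T cells, was at 288.0, 249 and 255 CPM in the control libraries and 274, 257 and 243 CPM in the knockout libraries. Ccl4, encoded 13.2 kb from Ccl3, was at 692, 523 and 575 CPM against 543, 618 and 603 CPM. Neither gene separated the groups, and the log2 fold changes were -0.03 (95% interval -0.22 to 0.16) and -0.02 (95% interval -0.24 to 0.20). Both intervals hold 0, which does not show that the levels were the same. The sign turned without control replicate 1 for both (0.034 and 0.099), without knockout replicate 3 for Ccl3 (0.013), and for Ccl4 also without knockout replicate 1 (0.038) or without size factors (0.0039). Ccl5, an attractant of T cells and monocytes, was at 263, 288 and 317 CPM against 290.0, 341 and 333 CPM, with overlapping groups. Its log2 fold change was 0.15 (95% interval -0.05 to 0.35), with an adjusted p of 0.861 in edgeR.

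Ccl24, the eosinophil attractant and the lowest of the 10, was at 21.99, 39.4 and 34.7 CPM in the control libraries and at 16.1, 24.9 and 24.3 CPM in the knockout libraries. Control replicate 1 lay below knockout replicates 2 and 3, and the other control libraries lay above all 3 knockout libraries. The mean was 32.03 ± 9.01 CPM (SD, n = 3) in the control and 21.8 ± 4.92 CPM (SD, n = 3) in the knockout, a log2 fold change of -0.56 (95% interval -0.95 to -0.16) with an adjusted p of 0.547 in edgeR. In size this difference is close to that of Ccl8, and the spread of its libraries was larger. The coefficient of variation of Ccl24 was 28.1% in the control and 22.6% in the knockout, against 4.27% and 6.50% for Ccl8. The coefficient of variation from counting alone was at most 6.54% in any library of any of the 10. Single libraries moved several of these log2 fold changes: without control replicate 2, that of Ccl2 was -0.15, that of Ccl9 -0.094 and that of Ccl24 -0.37, and without knockout replicate 1 that of Ccl7 was -0.29. Without control replicate 1, that of Ccl5 was 0.087.

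**Figure D3:**
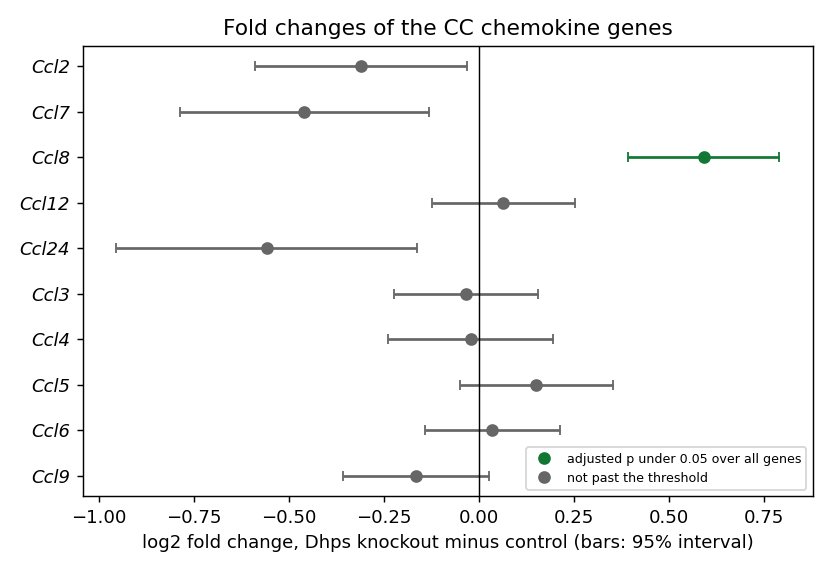
Log2 fold change of each gene, knockout minus control, with bars for the 95% interval of the fit. Ccl8 at 0.59 is the gene that passed the threshold over all genes, and Ccl24 at -0.56, Ccl7 at -0.46 and Ccl2 at -0.31 did not pass.

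Across the 6 libraries, Ccl2, Ccl7, Ccl9 and Ccl24, a set picked for its correlations, moved together. The 6 pairs among these 4 genes had Pearson correlations of log2 CPM between 0.92 and 0.98 over the 6 libraries, and between 0.88 and 0.96 for deviations from each group's mean, on points that share library and depth. All 45 pairs of the 10 genes ran from -0.73 to 0.98, and from -0.94 to 0.96 for deviations. Within groups Ccl6 followed these 4 too, with correlations of deviations between 0.84 and 0.96, and over all libraries between 0.36 and 0.51. Within both groups, replicate 1 was the lowest library for 7 of the 10 genes (Ccl2, Ccl7, Ccl12, Ccl5, Ccl6, Ccl9 and Ccl24), which was so for 15.9% of all genes. Replicate 2 was the highest in both groups for 6 of the 10 (the same genes without Ccl5), against 10.1% of all genes, and Ccl3 was highest in replicate 1 of both groups. Ccl8 had no such order: in the control, replicate 3 was its highest library and in the knockout replicate 3 was its lowest. Whether libraries with the same number share a source is not given in the sources used here.

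**Figure D4:**
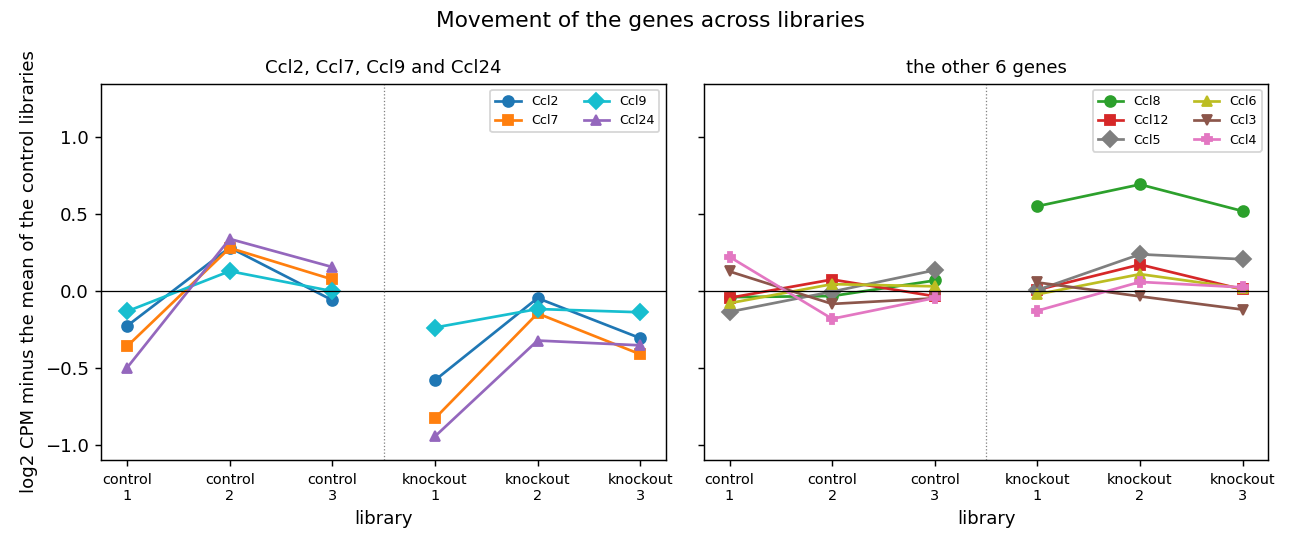
Log2 CPM of each gene minus the mean of the control libraries, by library. The left panel shows Ccl2, Ccl7, Ccl9 and Ccl24 and the right panel the other 6 genes, and the lines only join the points of a gene within a group. In the left panel replicate 1 is the lowest and replicate 2 the highest of the control libraries for all 4 genes, and in the right panel Ccl8 lies above the other 5 in the knockout.

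The genes most like each of 4 chemokines over the 6 libraries were taken from 5683 genes with a mean log2 CPM of at least 4. For Ccl8 they were Zbtb1 (r = 0.99), Nfrkb (r = 0.99) and Rac1 (r = 0.98), whose own log2 fold changes of 0.13, 0.13 and 0.14 were smaller than that of Ccl8. For Ccl7 they were Itga9 (r = 0.99), Cd83 (r = 0.98) and Utp18 (r = 0.98), for Ccl24 Minos1, Utp18 and Hbp1 (each r = 0.99), and for Ccl5 Prkar1a, Tmem33 and Hspa4l (each r = 0.99). A correlation of 0.9 or more was reached by 46 candidates with Ccl8 and by 85 with Ccl7, which is 0.809% and 1.496% of them.

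Among the receptors of these chemokines and the 8 other lists of genes around them, edgeR called 0 genes, limma-voom called 0 and DESeq2 called 1, Cd163 in the list of alternative activation (adjusted p = 0.0084). Of 16 CC chemokine receptors listed, 6 were measured, with a median log2 fold change of 0.07, and 1, Ccr2, had an unadjusted p under 0.05. Ccr1, the receptor of Ccl9 and Ccl6, which was added after its values were seen, was at 1156 ± 88.8 CPM (SD, n = 3) in the control and 1205 ± 43.3 CPM (SD, n = 3) in the knockout. Ccr2, the receptor of Ccl2, Ccl7 and Ccl12, was low at 3.34 ± 0.741 and 5.34 ± 1.84 CPM, a log2 fold change of 0.68 with an adjusted p of 0.673 in edgeR, and Ccr9 had a log2 fold change of -0.23. Ccr8, on which mouse Ccl8 acts, was not among the genes of the table, which does not show that it had no counts. Of 14 other CC chemokines, 2 were measured: Ccl22 at 6.88 and 8.76 CPM and Ccl25 at 2.22 and 1.49 CPM, and 0 of the 2 had an unadjusted p under 0.05.

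Of 16 CXC and other chemokines, 12 were measured, with a median log2 fold change of -0.02, and 1 higher and 2 lower had an unadjusted p under 0.05. These were Ppbp, Pf4 and Cxcl1. Ppbp, a platelet chemokine, had 0.77 (adjusted p = 0.142 in edgeR), Pf4 had -0.29 (adjusted p = 0.521) and Cxcl1, a neutrophil attractant, had -0.35 (adjusted p = 0.542). The 34 transcription regulators of chemokine genes, such as the NF-kB subunits, had a median of 0.04 and 1 gene at an unadjusted p under 0.05, with Rel at 0.26, Cebpd at -0.31 and Relb at -0.19. The 23 receptors and adaptors upstream of chemokine induction had a median of 0.02 and 1 higher and 1 lower gene at an unadjusted p under 0.05, with Ticam2 at 0.43, Tlr2 at -0.21 and Il1r1 at 0.59. The 11 measured genes of 12 that act on the decay of chemokine mRNA had a median of 0.10. Of these, 8 lay above 0 and 4 had an unadjusted p under 0.05, all higher. Over all genes, 5143 of 10551 lay above 0, and 3.84% were higher at an unadjusted p under 0.05 in edgeR. The list was chosen with earlier results known, and nothing is read from these counts. In this list Tial1 had 0.36, Zc3h12a, an RNase that cleaves inflammatory mRNAs, had 0.28 and Zfp36l2, a binder of AU-rich elements, had 0.26. Their adjusted p were 0.594, 0.672 and 0.724 in edgeR. The 15 measured enzymes of 20 that trim chemokines had a median of 0.04 and 1 gene at an unadjusted p under 0.05, with Mmp9 at 0.31, Adam10 at 0.15 and Furin at 0.14. The 14 measured genes of 16 of alternative activation had a median of 0.04 and 2 genes at an unadjusted p under 0.05, with Cd163 at 2.06 from 0.825 CPM in the control (adjusted p = 0.142 in edgeR), Retnla at 1.13 and F13a1 at 0.32. Of the 4 genes of the hypusine pathway, 1, Dhps, had an unadjusted p under 0.05, and Eif5a2 stood at 0.06 and Dohh at -0.11.

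**Figure D5:**
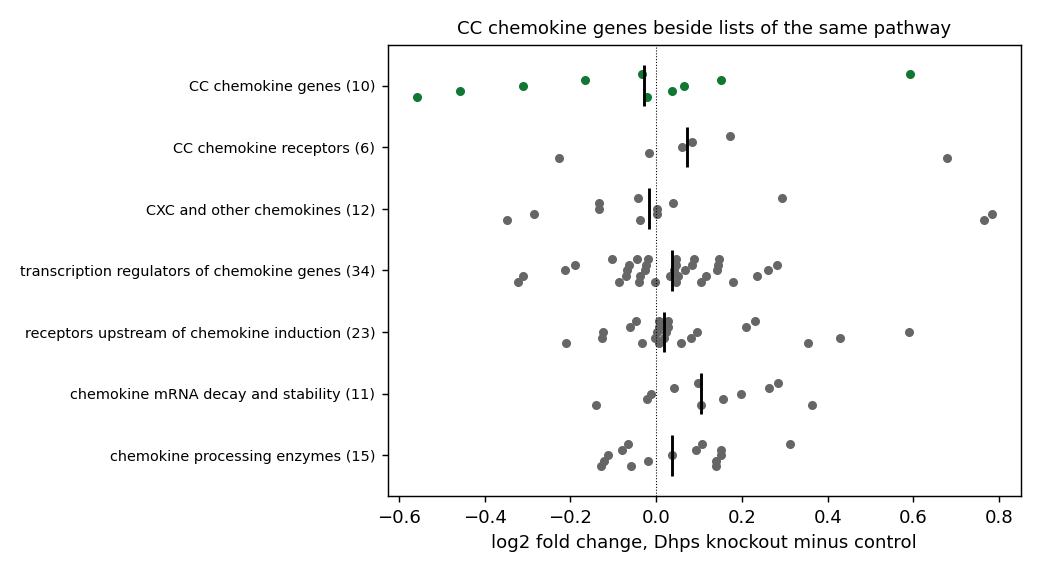
Log2 fold changes, knockout minus control, of the 10 CC chemokine genes and of the measured genes of 6 lists of the same pathway, 1 point per gene, with a bar at the median of each list. The medians lie between -0.03 and 0.10, and Ccl8 at 0.59 is the highest of the 10 chemokines.

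Markers of other cells moved between the groups. Over all genes, 0.0948% were called as higher and 0.00948% as lower, and 5408 of 10551 lay below 0. An unadjusted p under 0.05 in edgeR was reached by 3.84% as higher and by 2.64% as lower. The marker lists, too, were chosen with earlier results known. Of 16 neutrophil markers, 12 were measured, 5 were higher in the knockout past the threshold (Ngp, S100a8, Lcn2, S100a9 and Ltf), and the summed level of the 12 was 409 to 516 CPM in the control and 717 to 897 CPM in the knockout. Of 13 stromal markers, 7 were measured and 3 were higher (Col1a2, Sparc and Fstl1), with sums of 12.1 to 16.001 CPM and 21.5 to 29.5 CPM. Every gene of the table was above 1 CPM in at least 3 libraries, and Col1a2 and Sparc were so only in the knockout. If the table was filtered in this way, they entered it only through the knockout. Nothing is read from their direction, and the stromal sum includes them. With any 1 library left out, 0 to 2 stromal and 3 to 5 neutrophil markers were called (3 neutrophil without control replicate 2), and limma-voom called 0 stromal and 5 neutrophil markers. The edgeR fit without Lyz2 called 0 stromal markers as well, whereas DESeq2 called Col1a2, Sparc and Fstl1 (adjusted p = 0.0013, 0.0031 and 0.0064). Col1a1, Col3a1 and Dcn, which define such cells, were not among the genes of the table, nor were Ly6g and Cxcr2 for neutrophils. Their absence from the table does not show that they had no counts. All 12 macrophage markers were measured, 9 lay below 0 and 1, Lyz2, was lower past the threshold, with sums of 24509.6 to 27264 CPM and 14909.5 to 17454 CPM. Most of that difference is Lyz2 itself, at a mean of 18039 CPM in the control and 8765 CPM in the knockout. The other 11 summed to 7850.3 to 8494 CPM and 6849 to 7992 CPM, which overlap. Of those 11, C1qc, C1qa, Fcgr1 and C1qb were lower at an unadjusted p under 0.05, with log2 fold changes from -0.33 to -0.25. Monocyte markers had sums of 872 to 1081 and 809.8 to 1068 CPM with 0 of 9 measured called, most of it from Fn1. The median log2 fold change of the 9 was 0.32, and 4 had an unadjusted p under 0.05, all higher in the knockout: Plac8 at 0.86, Spn at 0.79, Hp at 0.64 and Ly6c2 at 0.50. The mast cell and basophil (4 measured of 10), eosinophil (5 of 9), T and NK cell (1 of 14), dendritic (3 of 8), B and plasma cell (2 of 8), megakaryocyte (7 of 8) and endothelial (3 of 6) lists had 0 called in edgeR, DESeq2 or limma-voom, and between 0 and 5 genes of each at an unadjusted p under 0.05. Ccl8 and the neutrophil and stromal sums were higher in every knockout library than in every control library. So was the mast cell and basophil sum, at 2.00 to 4.44 CPM against 5.36 to 7.79 CPM. Cd4, the measured T cell marker, was too, at 0.348 to 1.07 CPM against 1.94 to 2.39 CPM. Of the 4 measured mast cell and basophil genes, Mcpt8 and Prss34 had log2 fold changes of 2.001 and 1.70, Kit 0.11 and Cpa3 -0.11. Mcpt8 and Prss34 were above 1 CPM in the knockout only, and Cd4 in the knockout and control replicate 1. Under such a filter they, too, entered the table only through the knockout, and nothing is read from their direction or that sum. The megakaryocyte sum was lower in every knockout library, at 1423 to 1715 CPM against 1198 to 1330.3 CPM. Most of that sum is Pf4, at a mean of 1517 CPM in the control and 1245 CPM in the knockout. The list went the other way: 6 of its 7 measured genes lay above 0, with a median log2 fold change of 0.64. Of these, 4 were higher at an unadjusted p under 0.05 in edgeR: Ppbp, Itga2b, Tubb1 and Gp9. Ppbp and Itga2b were above 1 CPM in every library. Tubb1 and Gp9 were above it in the knockout only, Treml1 also in control replicate 2 and Gp1ba also in control replicate 3. Under such a filter Tubb1, Gp9, Treml1 and Gp1ba entered the table only through the knockout. Nothing is therefore read from these counts or the median. The part of those cells in the difference of Ccl8 was not tested.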

How the data were processed

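RNA of 6 macrophage libraries was sequenced on an Ion Proton, per the labels. The deposited table holds the authors' raw read counts per gene, whole numbers with no normalization, and each gene's length. Every gene in it was above 1 CPM in at least 3 libraries, so genes of lower level may have been left out before deposit. Tools listed in the submitters' processing notes, without role or order, are edgeR, Subread 1.5.0, featureCounts and STAR 2.4.2a, with the build mm10. The annotation and the strand setting are not given in the sources used here. All 6 count columns were used.

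Counts were tested with edgeR 4.0.16 in R 4.3.3 (quasi-likelihood test, TMM size factors, minimum count of 10 in filterByExpr, two-sided, Benjamini-Hochberg adjustment over 10551 genes), with genotype as the term. The call is an adjusted p under 0.05. Limma-voom 3.58.1, DESeq2 1.42.0, other size factors and filters, a fit without Lyz2, leaving out each library, and a replicate block were the alternatives. Levels are TMM-scaled CPM, and RPKM used the deposited lengths. The fit was tested on simulated data. The 10 genes and all lists were chosen with earlier results of these data known. Named are all 10 chemokine genes, Dhps, the genes called in a pathway list or otherwise up to 3 with the smallest p, the 3 most alike genes for each of 4 chemokines, and of each marker list up to 3 with the smallest p. Ccr1, S100a9, Ltf, Fcgr1, C1qb, Fn1, Ly6c2, Cpa3 and the markers given as not measured were named after their values were seen. One gene that this rule names is not reported here. Coding sequences came from GENCODE M21 and promoters from RefSeq (GRCm38.p6), aligned with Biopython 1.88. No list was tested as a set.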

Additional observations from a re-analysis of the deposited data

How the results depend on the processing

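The log2 fold change of Ccl8 ran from 0.54 to 0.63 over 14 alternatives and its adjusted p from 1.2e-05 (DESeq2) to 0.137, the latter without knockout replicate 2. That of Ccl7 ran from -0.63 to -0.29, of Ccl24 from -0.77 to -0.37 and of Ccl2 from -0.45 to -0.15. Ccl4 changed sign without size factors (0.0039). DESeq2 called 22 genes, 19 higher and 3 lower, against 11, 10 and 1 in edgeR, and the cause was not tested. Without Lyz2 in the fit, 7 genes were called and 0 lower, since Lyz2 was the lower one. Leaving out 1 library at a time gave 4 to 19 genes called, 3 to 14 higher and 1 to 5 lower, and 0 to 1 of the 10 chemokines. Under the same omissions Ccl3 ran from -0.074 to 0.034, Ccl4 from -0.10 to 0.099 and Ccl6 from -0.0018 to 0.069.

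Deviations of same-numbered libraries correlated at 0.14, 0.02 and 0.15 for replicates 1, 2 and 3, so the numbers were not taken to pair the libraries. Control 2 and knockout 2 correlated better with a library of another number. Between libraries of different numbers the values ran from -0.18 to 0.05, so those of replicates 1 and 3 were the highest of all. Whether the numbers mark pairs is thus not settled by these values. With the replicate block, 35 genes were called, 26 higher and 9 lower, and 3 of the chemokines, 2 of them lower (Ccl7, adjusted p = 0.0104, and Ccl24, adjusted p = 0.0219, in edgeR), and Dhps had -0.61 (adjusted p = 0.033). Ppbp (adjusted p = 0.0432) and Cd163 (adjusted p = 0.0104) were also called in edgeR with the block. So were Col1a2, Sparc and Fstl1 (adjusted p = 0.0083, 0.0104 and 0.0171 in edgeR).

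The coefficient of variation from counting alone was at most 6.54% for Ccl24, against 28.1% and 22.6% between its libraries. For Ccl8 in the control, counting gave 3.48% to 3.90%, close to the 4.27% between libraries, so that depth bounds the precision there.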
